A study of Mus musculus with 32 samples.

Results

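The genes of major histocompatibility complex (MHC) class II antigen presentation were followed through mouse blood progenitors that carried different doses or a mutant allele of the splicing factor gene U2af1. Members were taken by gene symbol from a list of 9: Cd74, H2-Aa, H2-Ab1, H2-Eb1, H2-DMa, H2-DMb1, H2-Oa, H2-Ob and Ciita. A row was used for 6 of these 9 genes, out of 27728 genes in the table: Cd74, H2-Aa, H2-DMa, H2-Oa, H2-Ob and Ciita. H2-Ab1, H2-Eb1 and H2-DMb1 were not analysed here. Expression was measured by RNA sequencing in 32 libraries of progenitors sorted as Lin-, cKit+ and Sca1-: 15 of E14.5 fetal liver and 17 of the marrow of adult mice.

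The fetal groups were U2af1(flox/flox) without Cre (flox control, n = 3), Vav1-Cre/U2af1(wt/flox) (heterozygous deletion, n = 3), Vav1-Cre/U2af1(flox/flox) (homozygous deletion, n = 3), Vav1-Cre alone (n = 2) and Vav1-Cre/U2af1(wt/S34F) (n = 4), all untreated. Vav1-Cre is active in blood cells, and S34F is an amino acid substitution in the U2AF1 protein. The adult dose groups carried Mx1-Cre, rTA and the transgene tgU2AF1(WT) on U2af1(flox/S34F) and received pIpC, which induces Mx1-Cre, and doxycycline, which induces the wild-type U2AF1 transgene, in chow. There were 4 libraries at 1250 ppm, 6 at 2500 ppm and 4 at 10000 ppm. The control for them (n = 3) carried the same Cre, rTA and transgene on U2af1(wt/wt) and was untreated. The dose groups therefore differed from that control in U2af1 genotype, pIpC and doxycycline at once, and these cannot be told apart. The genotype labels could not be checked by the counts of U2af1, which was not analysed here.

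MHC class II molecules are surface heterodimers of an alpha and a beta chain that show peptides from the endosomal system to CD4+ T cells. The invariant chain escorts the new heterodimer to endosomes, where proteases trim it to a short peptide that the H2-DM heterodimer exchanges for antigen, while the H2-O heterodimer restrains H2-DM. Dendritic cells, B cells and macrophages are the main class II cells of blood-forming tissue, and the transactivator CIITA is known as the switch of the pathway: it does not bind DNA itself, but docks on the RFX, CREB and NF-Y factors that sit on the X and Y boxes of class II promoters.

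The promoters of H2-Aa, H2-Oa and H2-Ob are shown because these genes share that docking arrangement while their counts behaved differently in the libraries. The sequences are from RefSeq (GRCm38.p6), written 5′ to 3′ on the gene's strand, with the X box core GCAAC and the Y box ATTGG in capitals.
H2-Aa, chr17:34287857-34287934, minus strand: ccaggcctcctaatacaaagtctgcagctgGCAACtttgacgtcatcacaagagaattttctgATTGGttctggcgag
H2-Oa, chr17:34092273-34092350, plus strand: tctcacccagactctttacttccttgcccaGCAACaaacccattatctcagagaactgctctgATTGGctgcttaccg
H2-Ob, chr17:34238788-34238862, plus strand: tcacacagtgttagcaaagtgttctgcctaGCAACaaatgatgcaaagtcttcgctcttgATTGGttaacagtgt

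The 2 boxes were 28 bases apart in H2-Aa and H2-Oa and 25 bases apart in H2-Ob. The X core began 81, 76 and 87 bases upstream of the RefSeq start of H2-Aa, H2-Oa and H2-Ob. For H2-Oa that start lies inside the gene as GENCODE M21 places it. Over 32851 RefSeq promoter windows of 300 bases (250 before to 50 after the start), searched on both strands, GCAAC was present in 35.2% and ATTGG in 37.4%. GCAAC followed by ATTGG after 20 to 35 bases was present in 0.794% of them. The H2-DMa windows (2 starts) did not hold the pair at that spacing, and the windows of Cd74 and Ciita were not analysed here. The 2 motifs and their spacing were chosen after the sequences had been seen, so the matches only describe the promoters.

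Cd74 (ENSMUSG00000024610), which encodes the invariant chain, lies on chromosome 18 (60803848 to 60812652, plus strand). H2-Aa (ENSMUSG00000036594), the alpha chain of the I-A molecule, lies on chromosome 17 (34282744 to 34287823, minus strand). H2-DMa (ENSMUSG00000037649; 34119541 to 34139101), H2-Oa (ENSMUSG00000024334; 34092340 to 34095234) and H2-Ob (ENSMUSG00000041538; 34238903 to 34254414) lie in the same region on the plus strand. Ciita (ENSMUSG00000022504), the transactivator, lies on chromosome 16 (10480059 to 10528418, plus strand). The coordinates are those of GRCm38 in GENCODE M21, and all members are protein-coding.

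Some exon bases are shared with genes on the other strand: 360 of H2-DMa with Brd2, 321 of H2-Oa with BC051537 and 329 of Ciita with Dexi. The sources used here do not say whether strand was used in counting, so H2-DMa, H2-Oa and Ciita carry that uncertainty. Cd74 also overlaps the microRNA gene Mir5107 by 12 bases on its own strand.

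Libraries held 26.6 to 71.3 M counts (M, 1000000). Progenitor transcripts were high in every library, with Kit between 231 and 789 counts per 1000000 (CPM) and Mpo, of granulocyte precursors, between 7302 and 34210 CPM. Markers of class II cell lineages were nevertheless detected. The summed level of the 8 B cell markers with a row ran from 18.7 to 130 CPM over the 32 libraries. At 18.7 CPM, in untreated wild type replicate 3, 4 of the 8 had no count, so not every marker was detected in every library. In sorted bulk samples, fewer cells of a type and less RNA per cell cannot be told apart. The fetal libraries came in 2 batches per the labels. Batch A held every flox control and deletion library, and batch B every S34F library.

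Class II transcripts were scarce in fetal progenitors and clearly present in adult ones. Over the 15 fetal libraries, Cd74 had a median of 2.88 CPM (0 to 8.87), against 56.8 CPM (9.997 to 178) over the 17 adult libraries. H2-Aa had a median of 0.823 CPM (0 to 3.16) in fetal and 27.9 CPM (6.06 to 70.5) in adult libraries. Ciita had a median of 0.316 CPM (0.0354 to 0.885) in fetal and 4.001 CPM (1.19 to 11.3) in adult libraries. For these 3 genes no fetal library reached the lowest adult library. The share of all genes separated in this way was not computed. Between the flox control and the untreated adults, 59% of 12256 genes tested were called.

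H2-DMa, the alpha chain of the peptide exchange heterodimer, was also separated by stage. It had a median of 18.2 CPM (6.08 to 30.6) in fetal and 73.5 CPM (56.9 to 98.7) in adult libraries. H2-Ob, the beta chain of the H2-O heterodimer, had a median of 1.21 CPM (0.601 to 2.30) in fetal and 10.2 CPM (3.15 to 21.2) in adult libraries. H2-Oa, its alpha chain, was the exception, with a median of 4.93 CPM (3.29 to 7.21) in fetal and 6.88 CPM (5.16 to 13.98) in adult libraries, and the stages overlapped.

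**Figure D1:**
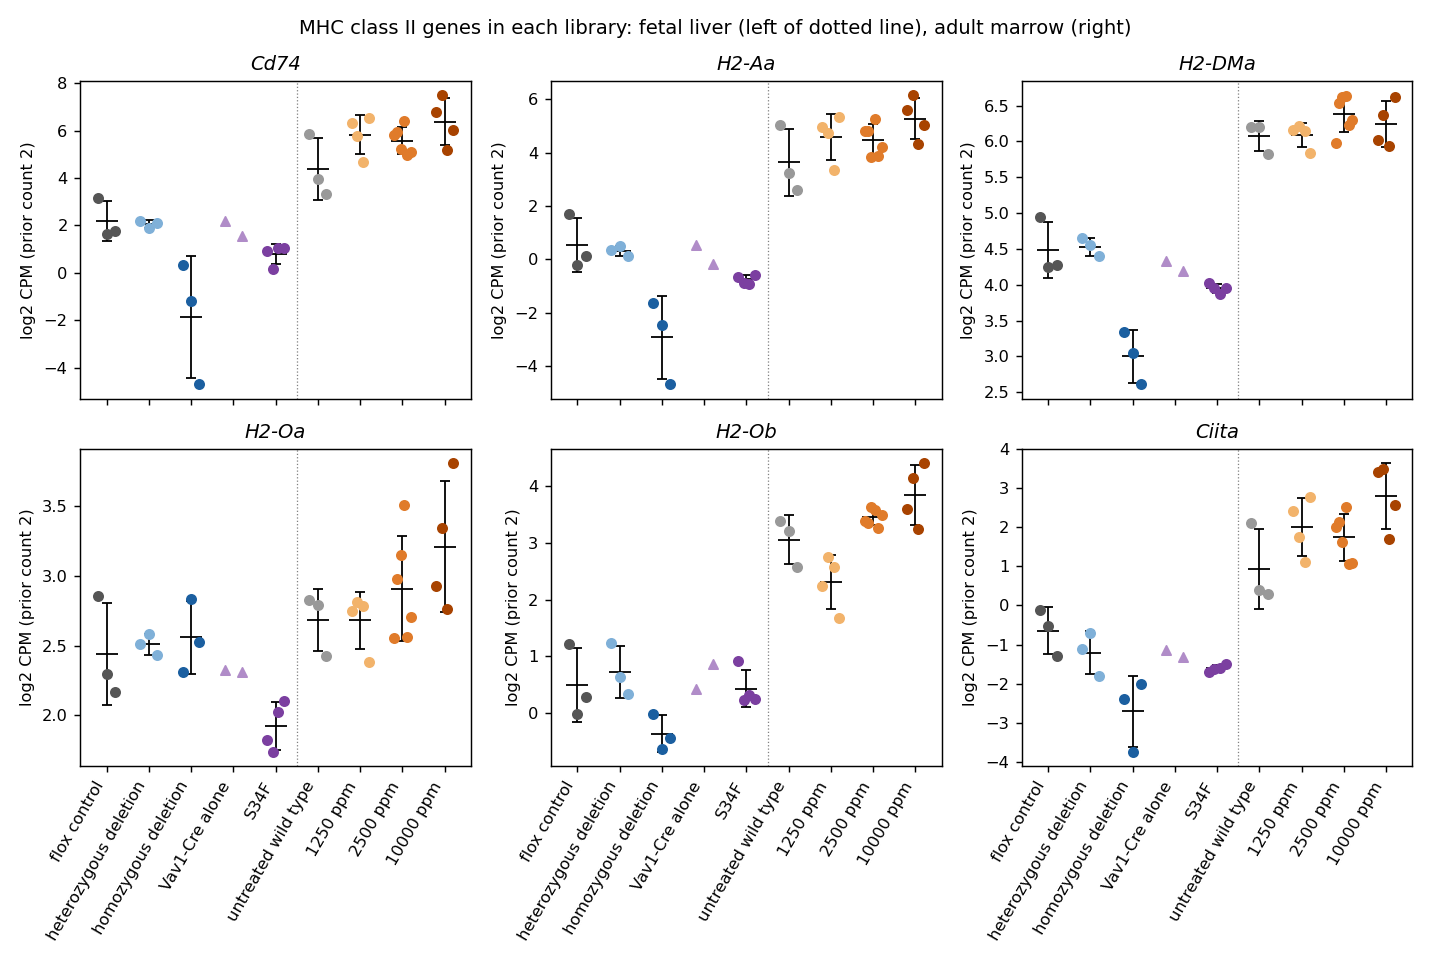
Level of the 6 members in each of the 32 libraries, in log2 CPM (prior count 2) on axes that differ between panels, with 1 point per library and bars for the group mean ± SD (none for Vav1-Cre alone, drawn as triangles). Groups left of the dotted line are fetal and the others adult. The group means of Cd74, H2-Aa and Ciita are lowest in the homozygous deletion and highest at 10000 ppm, while H2-Oa stays between 3.29 and 13.98 CPM.

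Levels of different genes were set side by side per kilobase of exon. In the flox control H2-DMa had the highest mean, at 6.65 ± 1.94 CPM per kb (SD, n = 3). H2-Oa at 3.92 ± 1.06 and Cd74 at 3.04 ± 1.94 CPM per kb followed and lay within each other's spread. H2-Aa (0.443 ± 0.339 CPM per kb) and H2-Ob (0.273 ± 0.134 CPM per kb) came next and also lay within their spread, and Ciita was lowest at 0.0669 ± 0.0271 CPM per kb. H2-DMa, H2-Oa and Cd74 thus had more transcript per length than the presenting chain H2-Aa in the flox control, and Ciita had less.

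The order differed in the dosed adults. At 10000 ppm Cd74 had the highest mean at 58.1 ± 36.9 CPM per kb (SD, n = 4), H2-DMa had 22.3 ± 4.997 and H2-Aa had 11.3 ± 5.72 CPM per kb. Cd74 also had the highest mean at 1250 ppm (37.4 ± 17.5, against 19.8 ± 2.19 CPM per kb for H2-DMa) and at 2500 ppm (30.3 ± 12.2, against 24.5 ± 4.20 CPM per kb). At each of the 3 doses the mean ± SD ranges of Cd74 and H2-DMa overlapped. Both genes were counted in the same libraries, with 1.679 kb of exon for Cd74 and 3.448 kb for H2-DMa. H2-DMa counts per Cd74 count ran from 0.464 to 1.68 at 10000 ppm. Cd74 was thus the higher per kilobase in every library of that dose. The count ratio ran from 0.624 to 2.76 at 1250 ppm and from 1.11 to 2.61 at 2500 ppm, where the order differed between libraries. In the untreated wild type H2-DMa (19.7 ± 2.78 CPM per kb) and Cd74 (16.6 ± 15.7 CPM per kb) did not differ beyond their spread, nor did H2-Oa (4.56 ± 0.674 CPM per kb) and H2-Aa (4.24 ± 3.86 CPM per kb). Ciita was the lowest member per kilobase in all 9 groups.

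The first comparison, homozygous deletion with flox control, asked what loss of both U2af1 alleles did to these transcripts. Of the 6 members, 4 fell and none rose in edgeR's quasi-likelihood test at a Benjamini-Hochberg adjusted p under 0.05, where 41% of all 12678 genes tested were called and 22.4% were called lower. The median log2 fold change was -1.93 over the members and -0.02 over all genes tested. The members that fell were Cd74, H2-Aa, H2-DMa and Ciita.

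Cd74 had 8.87, 3.06 and 3.41 CPM in the 3 flox control libraries and 1.21, 0.407 and 0 CPM in the 3 homozygous deletion libraries. The groups did not overlap, flox control replicate 3 stood above the others, and homozygous replicate 4 had no Cd74 count. Cd74 fell by 3.22 ± 0.73 on the log2 scale (SE, adjusted p = 0.00529, edgeR), a 9.29-fold lower level. Without flox control replicate 3 the log2 fold change was -2.54 (adjusted p = 0.00798), and without homozygous replicate 2 it was -4.43 (adjusted p = 0.00209).

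H2-Aa had 3.16, 0.823 and 1.06 CPM in the flox control and 0.281, 0.142 and 0 CPM in the homozygous deletion. The same libraries were the highest and the lowest as for Cd74, and the groups were again apart. H2-Aa fell by 3.50 ± 0.72 on the log2 scale (SE, adjusted p = 0.00303, edgeR). Its log2 fold change was -2.65 without flox control replicate 3 and -4.30 without homozygous replicate 2, with the call kept each time. In the homozygous deletion these values rest on 56, 23 and 0 counts of Cd74 and 13, 8 and 0 counts of H2-Aa. A count of 3 would be 0.0903 CPM in replicate 4, the level below which absence cannot be told from low expression there.

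Ciita had 0.885, 0.658 and 0.370 CPM in the flox control and 0.151, 0.0354 and 0.211 CPM in the homozygous deletion, from 7, 2 and 7 counts. Every homozygous library lay below every control library. Ciita fell by 2.35 ± 0.62 on the log2 scale (SE, adjusted p = 0.0114, edgeR). Dexi, which shares exon bases with Ciita, fell by 0.64 in the same fit (adjusted p = 0.000889, edgeR), and its part in the Ciita counts was not tested.

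H2-DMa had 30.6, 18.9 and 19.2 CPM in the flox control and 10.1, 8.21 and 6.08 CPM in the homozygous deletion. All 3 homozygous libraries were below the controls, by less than for Cd74 or H2-Aa in fold terms. H2-DMa fell by 1.51 ± 0.20 on the log2 scale (SE, adjusted p = 0.000265, edgeR), a 2.85-fold lower level. Brd2, which shares exon bases with H2-DMa, differed in the other direction, with a log2 fold change of 0.18 (adjusted p = 0.0313, edgeR). Its mean was 484 CPM in the flox control and 553 CPM in the homozygous deletion, far above H2-DMa, and its part in the H2-DMa counts was not tested.

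The H2-O chains did not pass the test. H2-Oa had 7.21, 4.87 and 4.46 CPM in the flox control and 4.93, 7.09 and 5.72 CPM in the homozygous deletion. The groups overlapped, and the log2 fold change was 0.09 with a 95% interval from -0.31 to 0.48 (adjusted p = 0.768, edgeR). H2-Ob had 2.29, 0.940 and 1.18 CPM in the flox control and 0.951, 0.601 and 0.693 CPM in the homozygous deletion. The groups overlapped by 1 library, and the log2 fold change was -0.996 ± 0.39 (SE, adjusted p = 0.0616, edgeR). DESeq2 called H2-Ob lower (log2 fold change -0.98, adjusted p = 0.0434), as did edgeR with no filter on low counts (adjusted p = 0.0344), with batch as a covariate over all fetal libraries (0.0424) and without flox control replicate 4 (-1.22, adjusted p = 0.0391). Without flox control replicate 3, its highest library, H2-Ob had only -0.51 (adjusted p = 0.276, edgeR).

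The heterozygous deletion kept 1 intact U2af1 allele, and no member was called against the flox control (0 of 6), where 0.0316% of all genes were called. None of the 6 had an unadjusted p under 0.05 in edgeR's quasi-likelihood test, and DESeq2 also called 0. Cd74 had 4.56, 3.67 and 4.29 CPM in the heterozygous deletion, inside the range of the flox control. Its log2 fold change was -0.29 with a 95% interval from -1.51 to 0.94 (adjusted p = 0.930, edgeR).

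H2-Aa had 1.24, 1.35 and 1.04 CPM in the heterozygous deletion and was inside the control range too, with a log2 fold change of -0.47 (95% interval -1.61 to 0.67). H2-DMa was bounded more tightly: 25.0, 23.4 and 21.0 CPM in the heterozygous deletion gave a log2 fold change of 0.02 (95% interval -0.36 to 0.40). For Ciita, 0.419, 0.571 and 0.248 CPM in the heterozygous deletion gave -0.62 (95% interval -1.65 to 0.42). The intervals of Cd74, H2-Aa and Ciita allow changes of more than 2-fold in the lower direction at this number of libraries.

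Against the heterozygous deletion, which shares the homozygous libraries with the comparison above, 5 of 6 members were lower in the homozygous deletion, all but H2-Oa, where 42.3% of all genes were called and 22.4% were called lower. The log2 fold change was -2.93 ± 0.72 for Cd74 (adjusted p = 0.00798, edgeR), -3.03 ± 0.72 for H2-Aa (adjusted p = 0.00630) and -1.53 ± 0.20 for H2-DMa (adjusted p = 0.000229). Without homozygous replicate 2 the value was -4.14 for Cd74 and -3.82 for H2-Aa. H2-Ob had 2.30, 1.504 and 1.21 CPM in the heterozygous deletion, all above the homozygous libraries, and fell by 1.18 ± 0.39 (adjusted p = 0.0304, edgeR). Ciita fell by 1.73 ± 0.62 (adjusted p = 0.0446, edgeR).

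The calls of H2-Ob and Ciita in that comparison lay near the threshold. Both were lost without heterozygous replicate 3 (adjusted p = 0.106 for H2-Ob and 0.0783 for Ciita), without heterozygous replicate 4 (0.0574 and 0.155) and without homozygous replicate 3 (0.113 and 0.147) in edgeR's test. Ciita was also lost without homozygous replicate 2 (adjusted p = 0.0805), and H2-Ob without homozygous replicate 4 (adjusted p = 0.0741). The log2 fold changes kept their direction with any 1 library left out, from -1.37 to -0.90 for H2-Ob and from -2.22 to -1.19 for Ciita.

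**Figure D2:**
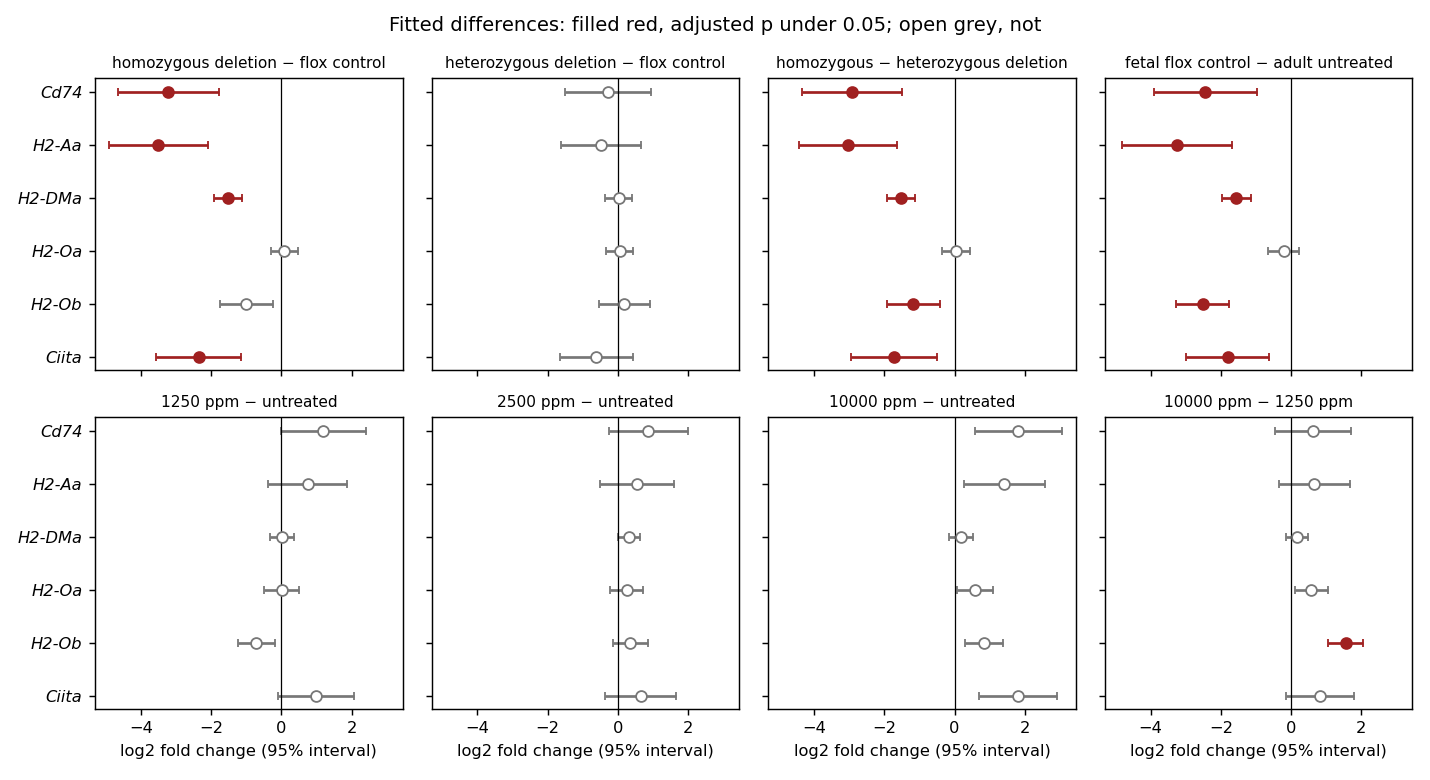
Log2 fold change of the 6 members in each comparison as points, with bars for the 95% interval, filled where the adjusted p was under 0.05 and open otherwise. In the homozygous deletion relative to the flox control, H2-Aa (-3.50), Cd74 (-3.22), Ciita (-2.35) and H2-DMa (-1.51) lie below 0, and H2-Oa lies at 0.09.

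Other genes of the pathway were read from a list of 37, of which 31 had a row. In the homozygous deletion relative to the flox control, 16 of the 30 tested fell and 1 rose. Of all genes tested there, 41% were called and 22.4% were called lower. H2-DMb2, a beta chain of H2-DM, fell by 1.38 ± 0.28 on the log2 scale (adjusted p = 0.00290, edgeR), from 5.37 to 2.08 CPM. Its near-identical neighbour H2-DMb1 was not analysed here, so reads of the 2 genes may not have been separated. H2-Eb2, a class II beta chain gene, fell by 3.08 ± 1.08 (adjusted p = 0.0420), from only 0.213 CPM.

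Among the genes for processing of antigen and invariant chain in endosomes, 5 of 7 fell. Ctss, a cathepsin that cuts the invariant chain, went from 19.9 to 2.83 CPM and fell by 2.83 ± 0.17 on the log2 scale (adjusted p = 2.09e-06, edgeR). Lgmn, an asparagine-specific endopeptidase, fell by 2.41 ± 0.18. The others, Ctsl, Ifi30 and Ctsb, fell by 0.45, 0.42 and 0.28. March1, a ubiquitin ligase that removes class II molecules from the surface, fell by 3.11 ± 0.35, and the costimulator Cd86 by 1.04 ± 0.24.

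The DNA-binding partners of CIITA moved little. Rfx5 fell by 0.42 ± 0.08 (adjusted p = 0.00268, edgeR) and Nfya by 0.29 ± 0.08 (adjusted p = 0.0119), while Rfxank, Rfxap, Nfyb, Nfyc and Creb1 were not called. Of the lineage factors, Irf8, needed for dendritic cells and monocytes, fell by 2.06 ± 0.14 (adjusted p = 4.59e-06), Irf4 by 2.88 ± 0.67 and the B cell repressor Bach2 by 2.19 ± 0.20. Spi1, which encodes PU.1, rose by 0.37 ± 0.11 (adjusted p = 0.0213), and of the class I transport genes only Tap1 fell, by 0.89 ± 0.15, with Tap2 and Tapbp tested and not called.

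Markers of class II cell types and of other cells moved with these members. All 7 tested B cell markers fell, as did all 7 conventional dendritic cell, 4 plasmacytoid dendritic cell and 9 macrophage markers tested. Of all genes tested, 22.4% were called lower. The median log2 fold change of the 7 B cell markers was -5.36, a larger fall than their summed level shows. The summed B cell marker level was 62.0 to 130 CPM in the flox control and 23.7 to 26.5 CPM in the homozygous deletion. The same ranges were 70.6 to 110 and 13.4 to 26.2 CPM for conventional dendritic cells, 33.2 to 49.96 and 21.5 to 26.5 CPM for plasmacytoid dendritic cells, and 78.8 to 83.1 and 11.2 to 20.4 CPM for macrophages. All 7 hepatocyte markers tested fell too (88.1 to 519 and 10.7 to 26.5 CPM), as did 3 of 4 monocyte markers (726 to 961 and 187 to 224 CPM). Of the progenitor genes, Kit (-0.95 ± 0.10 on the log2 scale) and Cd34 (-0.71 ± 0.14) fell, while Elane (0.71 ± 0.21) and Gata2 (0.90 ± 0.05) rose.

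Homozygous replicate 4, the library without Cd74 counts, also had 0 counts of the dendritic cell genes Cd209a, Clec9a and Batf3, and the macrophage genes Cd5l, Marco, Siglec1 and Clec4f. It was the smallest library of its group, at 34.5 M counts (group range 34.5 to 64.5 M). Macrophage markers without a count numbered 2 in homozygous replicate 2 and 3 in replicate 3, and their summed level was lowest in replicate 2 (11.2 CPM). Flox control replicate 3, the highest for Cd74, was also the highest of its group for the B cell markers (130 against 62.0 and 72.5 CPM). The part of these cell types in the class II result was not tested. In the heterozygous deletion no B cell, dendritic cell or macrophage marker was called against the flox control.

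**Figure D3:**
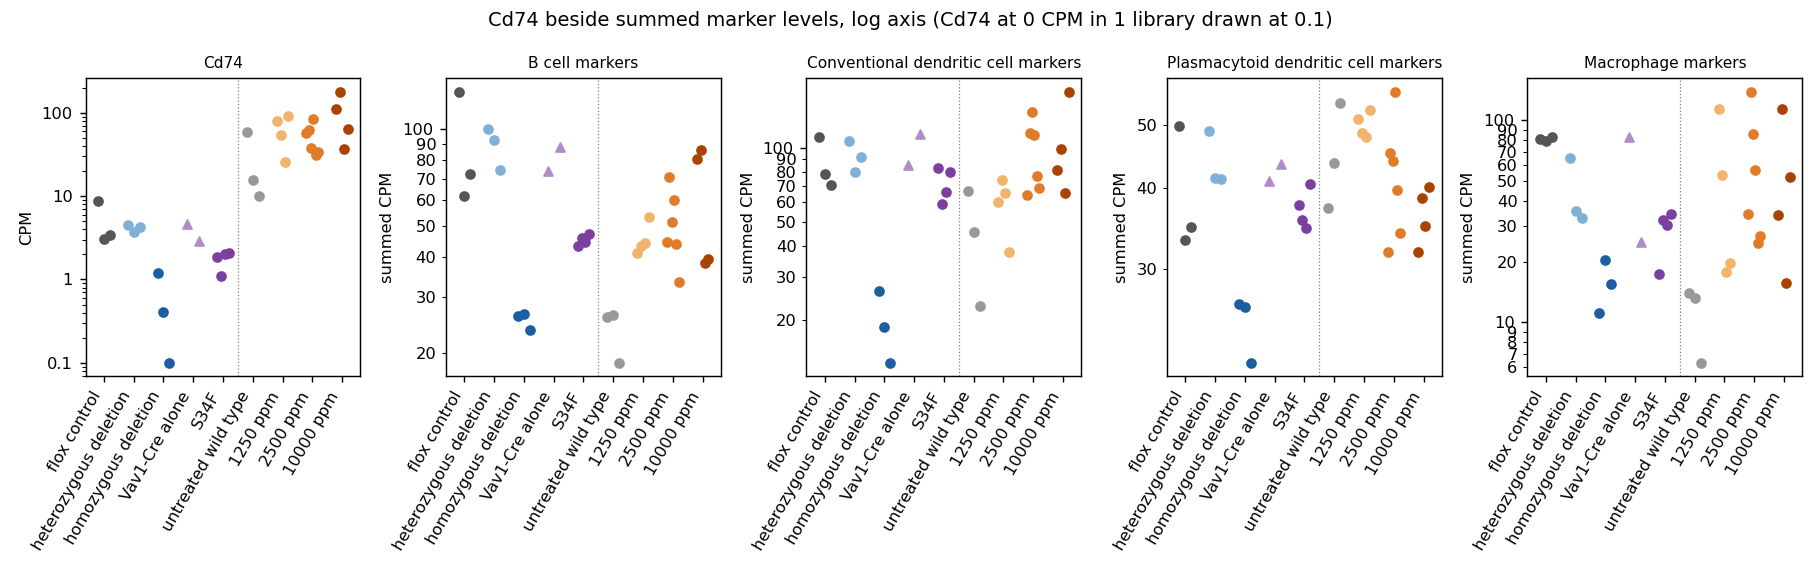
Cd74 in CPM and the summed CPM of the markers of 4 cell types, 1 point per library, on log axes that differ between panels, with triangles for Vav1-Cre and a dotted line between fetal and adult groups. The library with 0 CPM of Cd74 is drawn at 0.1. The 3 homozygous deletion libraries are the lowest of the fetal libraries for the B cell and conventional dendritic cell markers, though not for Cd74, where 1 S34F library (1.10 CPM) lies below the highest of them (1.21 CPM), and the untreated wild type has 18.7 to 26.4 CPM of B cell markers while its Cd74 lies above every fetal library.

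The S34F allele was set against Vav1-Cre alone within batch B, where only 1 control library was available, so no test was made. No member was at least 2-fold apart from that control in all 4 S34F libraries, a criterion that 1.01% of 11823 genes met. Cd74 had 1.85, 1.10, 2.02 and 2.05 CPM in the S34F libraries and 2.88 CPM in the control. All 4 were below it, with log2 differences (prior count 2) from -1.33 to -0.49.

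H2-Aa was between 0.490 and 0.632 CPM in the S34F libraries and 0.839 CPM in the control. H2-DMa was between 14.6 and 16.2 CPM against 18.2 CPM, and H2-Oa between 3.29 and 4.25 CPM against 4.91 CPM. Ciita was between 0.268 and 0.316 CPM against 0.360 CPM. For these members every S34F library was the lower one, but without a replicate of the control the size of the difference cannot be set against its spread. The share of all genes that were lower in all 4 S34F libraries than in that 1 control library was not computed.

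H2-Ob was lower in 3 of the 4 S34F libraries, at 1.13, 1.21 and 1.14 CPM against 1.77 CPM, and at 1.85 CPM in replicate 1. The summed B cell markers were 43.2 to 47.0 CPM in the S34F libraries and 88.0 CPM in the control, and their part in these differences was not tested. In batch A the other Vav1-Cre library had 4.58 CPM of Cd74 and 20.2 CPM of H2-DMa, inside the range of the flox control for both genes.

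Fetal liver was compared with adult marrow between the groups that had no deletion and no treatment. Of the 6 members, 5 were lower in the fetal flox control than in the untreated adult wild type, all but H2-Oa, where 59% of 12256 genes were called and 29% were called lower. Stage, tissue, alleles and preparation differed together and cannot be told apart. The median log2 fold change was -2.12 over the members and -0.00 over all genes tested. This comparison shares the flox control libraries with those of the deletions.

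H2-Aa had 32.9, 9.38 and 6.06 CPM in the untreated adults, all above the highest flox control library, and was lower in fetal cells by a log2 value of -3.24 ± 0.80 (adjusted p = 0.0116, edgeR). H2-Ob had 10.4, 9.21 and 5.90 CPM in the adults, also without overlap, with a log2 fold change of -2.52 ± 0.39 (adjusted p = 0.00164, edgeR). H2-DMa had 73.5, 73.4 and 56.9 CPM in the adults and -1.56 ± 0.21 (adjusted p = 0.000912, edgeR). These calls held when any 1 library was left out, although H2-Aa ranged from -4.07 without flox control replicate 3 to -2.19 without untreated replicate 1.

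Cd74 had 58.2, 15.4 and 9.997 CPM in the untreated adults, a wide spread with replicate 1 far above the others, and a log2 fold change of -2.44 ± 0.75 (adjusted p = 0.0275, edgeR). Ciita had 4.28, 1.28 and 1.19 CPM, with the same replicate high, and -1.81 ± 0.60 (adjusted p = 0.0365, edgeR). Both calls were lost without untreated replicate 1, where Cd74 had -1.31 (adjusted p = 0.0721) and Ciita -0.95 (adjusted p = 0.102). Both were also lost without flox control replicate 4, with folds close to those above for Cd74 (-2.18, adjusted p = 0.0846) and Ciita (-1.83, 0.0883), and without replicate 5 (-2.21, 0.0882 and -1.52, 0.110). Without flox control replicate 3 Cd74 had -3.09 (adjusted p = 0.0228).

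H2-Oa had 7.05, 6.88 and 5.33 CPM in the untreated adults against 4.46 to 7.21 CPM in the flox control. The groups overlapped, and the log2 fold change was -0.22 with a 95% interval from -0.66 to 0.23 (adjusted p = 0.441, edgeR). H2-Oa was thus the member whose level differed least both between the stages and between the deletion and its control, on the log2 fold changes of those 2 comparisons (flox control with untreated adults, and homozygous deletion with flox control).

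Many marker genes were higher in the fetal libraries of this comparison, in which 59% of all genes tested were called. All 7 tested B cell markers and all 9 macrophage markers were higher in the fetal flox control, among them Pax5 (19.5 against 0.368 CPM) and Marco (10.03 against 0.00673 CPM). Of 7 conventional dendritic cell markers, 3 were higher and 0 lower: Cd209a, Batf3 and Ccr7. Of 4 plasmacytoid dendritic cell markers 3 were higher and Bst2 was lower, with a summed level of 39.3 ± 9.23 CPM in the flox control and 45.1 ± 8.57 CPM in the untreated adults (SD, n = 3 each). Of 7 hepatocyte markers 6 were higher. The part of these cells in the class II differences was not tested.

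Of the other pathway genes, 8 were higher and 8 lower in the flox control among 29 tested. Of all genes tested, 59% were called and 29% were called lower, so the pathway list was called at about the same rate. The higher ones included the protease Lgmn (24.3 against 0.852 CPM, log2 fold change 4.84 ± 0.41), Irf4 (3.22 ± 0.45), Prdm1, a repressor of Ciita in plasma cells (2.43 ± 0.26), and Cd86 (2.13 ± 0.31). The lower ones included Irf1 (-1.41 ± 0.17), an interferon-induced transcription factor, Rfx5 (-0.38 ± 0.08), and the class I genes Tap1 (-2.69 ± 0.14), Tap2 (-2.04 ± 0.13) and Tapbp (-1.14 ± 0.12). H2-DMb2 was not called, with 5.37 and 4.49 CPM.

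The adult dose groups were compared with the untreated wild type, a control they all share. No member was called at 10000 ppm (0 of 6, where 1.27% of 13338 genes were called), at 2500 ppm (0 of 6, 0.487%) or at 1250 ppm (0 of 6, 11.4%). At 2500 ppm, with the replicate number as a block, 121 genes were called in place of 65, and again 0 members. In edgeR's quasi-likelihood test 5 members had an unadjusted p under 0.05 at 10000 ppm, 0 at 2500 ppm and 1 at 1250 ppm. The share of all genes with such a p was not computed, so these counts cannot be set against it. DESeq2 called 2 members at 10000 ppm, 0 at 2500 ppm and 1 at 1250 ppm. Over all genes it called 1055 at 10000 ppm and 567 at 2500 ppm, more than edgeR did.

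Cd74 had 111, 178, 36.4 and 64.5 CPM at 10000 ppm, and 79.7, 53.9, 25.6 and 91.9 CPM at 1250 ppm. At 2500 ppm its lowest, median and highest values were 31.1, 47.2 and 83.8 CPM. Each dose group overlapped the untreated wild type only through untreated replicate 1, which had 58.2 CPM. The log2 fold change against the untreated wild type was 1.82 ± 0.63 at 10000 ppm (adjusted p = 0.115, edgeR), 0.86 ± 0.58 at 2500 ppm (0.498) and 1.19 ± 0.62 at 1250 ppm (0.203). Without untreated replicate 1 these values were 2.96, 1.99 and 2.30, and none was called.

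H2-Aa followed Cd74, with 48.1, 70.5, 19.9 and 32.8 CPM at 10000 ppm and 31.4, 26.2, 10.2 and 39.7 CPM at 1250 ppm. At 2500 ppm it had 14.3 (lowest), 23.1 (median) and 38.6 CPM (highest). Its groups all overlapped the untreated wild type, with a log2 fold change of 1.42 ± 0.58 at 10000 ppm (adjusted p = 0.167, edgeR). Without untreated replicate 1 it was 2.49 (adjusted p = 0.0782).

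Ciita had 10.6, 11.3, 3.22 and 5.93 CPM at 10000 ppm, 5.32, 3.32, 2.11 and 6.86 CPM at 1250 ppm, and 2.03, 3.54 and 5.71 CPM (lowest, median, highest) at 2500 ppm. The order of the 10000 ppm libraries was the same as for Cd74, with replicate 2 highest and replicate 3 lowest. Its log2 fold change at 10000 ppm was 1.80 ± 0.56 (adjusted p = 0.0903, edgeR). Without untreated replicate 1 it was 2.67 (adjusted p = 0.0629, edgeR) and without 10000 ppm replicate 3 it was 2.08 (adjusted p = 0.0395), and DESeq2 gave 1.82 (adjusted p = 0.0133).

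H2-DMa was not called between any adult groups compared. It had 65.1, 82.7, 61.1 and 98.5 CPM at 10000 ppm, 71.2, 74.3, 70.7 and 57.3 CPM at 1250 ppm, and 63.2, 85.8 and 98.7 CPM (lowest, median, highest) at 2500 ppm. All groups overlapped, and the 95% interval of its log2 fold change at 10000 ppm against the untreated wild type was -0.15 to 0.52. Its largest value against that control was at 2500 ppm, 0.31 with a 95% interval from -0.01 to 0.62 (adjusted p = 0.379, edgeR).

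H2-Ob was the only member called between doses. It had 12.05, 17.6, 9.42 and 21.2 CPM at 10000 ppm, 9.61, 10.8 and 12.3 CPM (lowest, median, highest) at 2500 ppm, and 4.71, 6.70, 5.94 and 3.15 CPM at 1250 ppm. Every 1250 ppm library lay below every library of the other 2 dose groups.

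Between 10000 and 1250 ppm, H2-Ob was the 1 of 6 members called, where 18.1% of all genes were called and 7.53% were called higher. A single call among 6 members is thus near the share of all genes called. Its log2 fold change was 1.55 ± 0.26 (SE, adjusted p = 0.00333, edgeR), a 2.93-fold higher level. This call held when any 1 library was left out, with adjusted p up to 0.0151. Against the untreated wild type H2-Ob had 0.83 ± 0.27 at 10000 ppm (adjusted p = 0.103, edgeR) and -0.72 ± 0.27 at 1250 ppm (adjusted p = 0.0851). DESeq2 called it in both, with 0.85 (adjusted p = 0.0327) and -0.73 (adjusted p = 0.0465), and edgeR called it at 10000 ppm without replicate 3 of that dose (1.02, adjusted p = 0.0363).

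Over the 14 dosed libraries, the slope of H2-Ob was 0.47 ± 0.10 log2 units per doubling of the doxycycline dose (adjusted p = 0.0193, edgeR). It was the only member called for slope (1 of 6), where 10.7% of 12849 genes were called and 5.39% had a rising slope. The call was lost without 10000 ppm replicate 2 (0.45, adjusted p = 0.0713) and with the replicate number as a block (0.42, adjusted p = 0.0939, edgeR), where 33 genes were called in place of 1376.

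H2-Oa, the partner of H2-Ob, had 7.56, 10.1, 6.74 and 13.98 CPM at 10000 ppm and 6.69, 6.99, 6.85 and 5.16 CPM at 1250 ppm, with overlap through 1 library. At 2500 ppm it had 5.82 (lowest), 7.15 (median) and 11.3 CPM (highest). Its log2 fold change between those 2 doses was 0.57 ± 0.24 (adjusted p = 0.102, edgeR), and without 10000 ppm replicate 3 it was 0.76 (adjusted p = 0.0414).

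Other pathway genes changed at few points in the adult comparisons. At 10000 ppm against the untreated wild type 3 of 31 rose and 0 fell: Irf4 by 3.41 ± 0.68 on the log2 scale (adjusted p = 0.0291, edgeR), Bach2 by 1.36 ± 0.32 (0.0491) and the costimulatory receptor Cd40 by 3.73 ± 0.78 (0.0353). At 2500 ppm 0 of 31 were called. Of all genes tested, 1.27% were called at 10000 ppm and 0.487% at 2500 ppm. At 1250 ppm Nfyc, Ctsl and Lgmn were among those that rose, and Tap1 was among those that fell. Between 10000 and 1250 ppm March1 (2.64 ± 0.69), Ctsh (1.19 ± 0.36) and Bach2 (0.85 ± 0.29) were higher and Nfyc (-0.32 ± 0.06) was lower.

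Some B cell and macrophage markers were higher in the dose groups than in the untreated wild type. Against the untreated wild type, 4 of 8 tested B cell markers rose at 10000 ppm, 4 at 2500 ppm and 5 at 1250 ppm, and 2, 2 and 6 of 7 tested macrophage markers rose. Of all genes tested, 1.27%, 0.487% and 11.4% were called in these comparisons, so the counts of the 3 doses are not alike. The summed B cell markers were 38.1 to 85.8 CPM at 10000 ppm, 41.1 to 53.1 CPM at 1250 ppm, 33.2 to 70.7 CPM at 2500 ppm and 18.7 to 26.4 CPM in the untreated wild type. In untreated replicate 3, which had the lowest Cd74 of the group, Ms4a1, Vpreb3 and Blk were among the B cell markers at 0. Beside the H2-Ob difference between doses, Ms4a1 was the 1 of 8 B cell markers called between 10000 and 1250 ppm (3.80 ± 1.11, adjusted p = 0.0272, edgeR). Of 4 plasmacytoid dendritic cell markers Ccr9 and Ly6d were higher and Bst2 was lower, the T cell gene Cd3d and the gate gene Kit were higher, and no conventional dendritic cell, macrophage or monocyte marker was called. The part of these cells in the H2-Ob values was not tested.

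How the members varied together was measured over the 17 adult libraries, on log2 CPM with Cd74. H2-Aa had a Pearson r of 0.98 and a Spearman rho of 0.97, and Ciita had 0.97 and 0.98. Each had a permutation p of 1e-05, the smallest that 100000 permutations can give, with Benjamini-Hochberg adjusted values of 3.33e-05 for r and 5e-05 for rho over the 10 relations computed. Without the 2 libraries farthest from the median of Cd74, r was 0.97 for H2-Aa and 0.96 for Ciita. With each group's mean removed, r was 0.98 and 0.97, so the relation was present within the groups.

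H2-DMa, H2-Oa and H2-Ob did not show it. With Cd74, H2-DMa had an r of 0.26 (rho 0.24, adjusted permutation p = 0.398 for r and 0.397 for rho), which was 0.02 without the 2 farthest libraries. H2-Oa had 0.43 (rho 0.43, adjusted permutation p = 0.122 and 0.119) and H2-Ob 0.24 (rho 0.37, adjusted permutation p = 0.398 and 0.179). The transactivator, the invariant chain and the presenting alpha chain thus varied together between adult libraries over a range of 17.8-fold in Cd74, 11.6-fold in H2-Aa and 9.48-fold in Ciita, while H2-DMa varied over 1.74-fold.

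**Figure D4:**
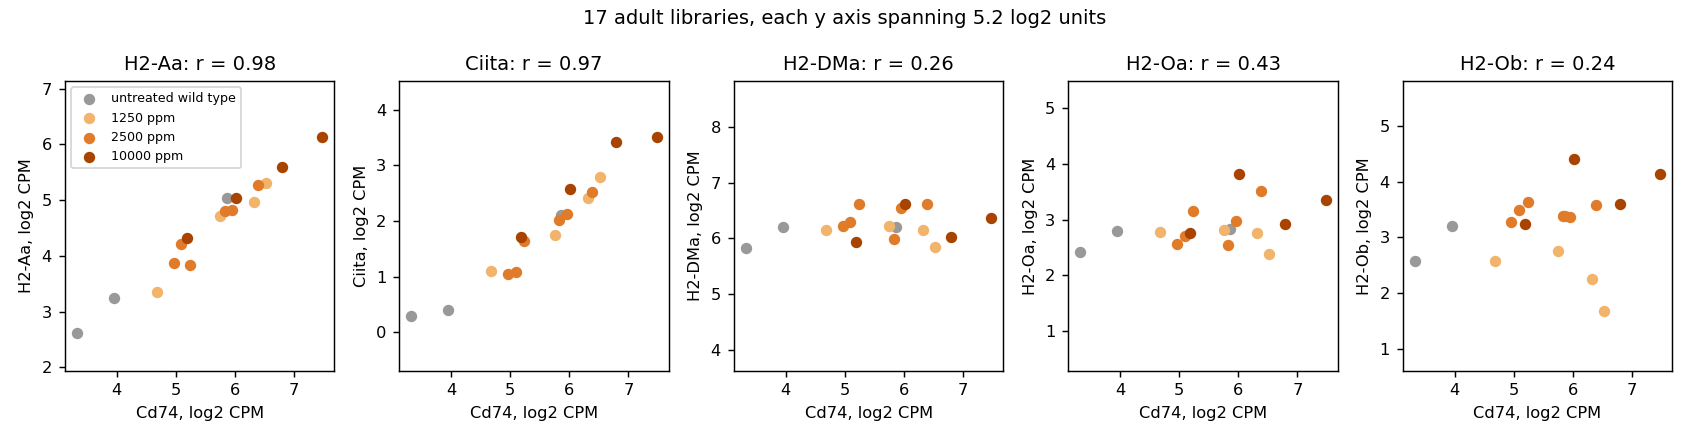
Log2 CPM of each of the other 5 members against log2 CPM of Cd74 in the 17 adult libraries, coloured by group, with Pearson r in each panel and y axes of equal span. Points for H2-Aa and Ciita lie along a line (0.98 and 0.97), and those for H2-DMa, H2-Oa and H2-Ob scatter (0.26, 0.43 and 0.24).

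Cell type markers varied with Cd74 in the same libraries. The mean log2 CPM of the conventional dendritic cell markers had an r of 0.91 with Cd74 (rho 0.83, adjusted permutation p = 3.33e-05 and 0.0003), the plasmacytoid dendritic cell markers 0.86 (rho 0.83, 5e-05 and 0.000233) and the B cell markers 0.84 (rho 0.72, 0.0001 and 0.00314). The macrophage markers had 0.61 (rho 0.55, 0.0163 and 0.0377), which was 0.34 without the 2 farthest libraries and so rested on them. The monocyte markers had -0.02 (rho -0.11, 0.949 and 0.664). With each group's mean removed, r was 0.94 for conventional and 0.82 for plasmacytoid dendritic cell markers, and 0.76 for B cell markers. It was then 0.39 for the macrophage and 0.36 for the monocyte markers. These libraries share their sort and their groups, and the part of each cell type was not tested.

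The genes most like the class II pair Cd74 and H2-Aa were ranked by Pearson r with the mean log2 CPM of the pair, as a description. Over the 15 fetal libraries they were Irf4 (0.98), Tmem176a (0.97), Gata3 (0.97), Ptk7 (0.96) and Tmem176b (0.96). Over the 17 adult libraries they were Tbc1d9 (0.91), Mycl (0.90), Shtn1 (0.89), Slamf7 (0.88) and Ckb (0.88). No gene was in both lists. The fetal values include the large differences between the homozygous deletion and the other groups.

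Ratios of counts within a library are free of its depth. H2-Aa counts per Cd74 count ran from 0.232 to 0.457 in the 14 fetal libraries with Cd74 counts and from 0.379 to 0.607 in the 17 adult libraries, a narrow range beside that of either gene. The 3 highest adult values, 0.565 to 0.607, were those of the untreated wild type, above every dosed library (up to 0.547). H2-DMa counts per Cd74 count ran from 3.46 to 20.2 in fetal and from 0.464 to 5.69 in adult libraries.

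The H2-O chains had a ratio of their own. H2-Ob counts per H2-Oa count ran from 0.0848 to 0.530 in the 15 fetal libraries and from 0.610 to 1.78 in the 17 adult ones, so the stages did not overlap. Within the adults the 1250 ppm libraries had 0.610 to 0.960, below all libraries of the untreated wild type (1.11 to 1.48), of 2500 ppm (1.05 to 1.78) and of 10000 ppm (1.40 to 1.74). In the homozygous deletion the ratio was 0.0848 to 0.193, just below the lowest value of every other fetal group. These ratios were read after the levels had been seen and carry no test.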

How the data were processed

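The authors deposited raw counts of reads for each Ensembl gene ID in each library, as whole numbers. Reads were mapped with HISAT2 2.1.0 to GRCm38, per the series' design text. The counting tool, the annotation release and the use of strand are not given in the sources used here. Symbols and exon lengths were taken from GENCODE M21, where 27668 of the 27728 gene IDs had a symbol, and promoters from RefSeq (GRCm38.p6). Library totals, TMM factors and with them every CPM rest on those 27728 rows, and genes not analysed here do not enter them.

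CPM values are counts per 1000000 after TMM scaling of all 32 libraries together, and log2 CPM values have a prior count of 2. Tests were edgeR 4.0.16's quasi-likelihood test on the counts with filterByExpr and TMM, fitted on the whole table, with Benjamini-Hochberg adjustment over all genes tested and calls at an adjusted p under 0.05. The 9 batch A libraries of the flox control and the deletions shared 1 fit, as did the 17 adult libraries, for which the labels give no batch. The stage comparison used its own 6 libraries. The dose slope used log2 of the dose in ppm over 14 libraries. An SE is the log2 fold change divided by the root of the F statistic, and 95% intervals are 1.96 SE to each side, an approximation. S34F was described within batch B over genes that averaged at least 10 counts. The labels do not say whether replicates are separate animals, so p-values measure the spread between these libraries. The labels do not say what a replicate number shares. Same-numbered libraries had every correlation over 0.1 only for 2500 ppm and the untreated wild type among the groups compared (0.19 to 0.37 over 3 pairs). Differently numbered libraries of these groups reached 0.46, so these values do not show that the numbers pair them. None of the 46 pairs of replicates looked like 1 library deposited again: chi-square divided by its degrees of freedom was 3.64 to 463. Reads carry no molecular identifiers, so the floor of 3 counts covers counting error only.

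The members and all gene lists were chosen with earlier results of these data known. The genes named beside the members are those of the pathway and marker lists that passed the test in a comparison, with the 5 genes per stage most like Cd74 and H2-Aa among genes with a mean of at least 50 counts (H2-Ab1 and H2-Eb1, also in that rule, were not analysed here). The scripts were tested on simulated data with known changes. Alternatives were DESeq2 1.42.0, RLE factors, no filter, a mean of at least 50 counts, each library left out, the replicate number as a block, only the compared groups, a batch covariate, the rank of the dose, other control groupings and, for S34F, a prior count of 0.5.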

Additional observations from a re-analysis of the deposited data

Results flagged for a closer look

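In the 24 sets of 4 to 6 libraries of 1 group that could be examined over the 6 members, 2 held a library far from the others by Dixon's criterion. Chance gives such a library in about 1 of 20 sets. H2-Oa had 5.16 CPM in 1250 ppm replicate 5 against 6.69 to 6.99 CPM in the other 3 libraries of that dose. H2-Ob had 1.85 CPM in S34F replicate 1 against 1.13 to 1.21 CPM in the other 3 S34F libraries.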

How the results depend on the processing

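Of 753 values of single members under the alternatives, 706 kept their direction and their side of the threshold, 17 kept their direction but lost the call, 10 kept it and gained the call, and 20 changed sign, all of them values that were not called. The number of members called in the homozygous deletion relative to the flox control became 5, with H2-Ob, under DESeq2, no filter and the batch covariate, and against the heterozygous deletion 4, without Ciita, under the replicate block. It became 2 with DESeq2 at 10000 ppm against the untreated wild type, 1 with DESeq2 at 1250 ppm against the untreated wild type, and 0 for the dose slope with the replicate number as a block. With each library left out in turn, 4 to 5 members were called in the homozygous deletion relative to the flox control, 3 to 5 against the heterozygous deletion, 3 to 5 between the flox control and the untreated adults, 0 to 2 at 10000 ppm against the untreated wild type, 1 to 2 between 10000 and 1250 ppm, and 0 to 1 for the slope. The count for S34F and those of the other comparisons stayed at 0. Values that changed sign with a library left out, as log2 fold changes, were these. H2-Oa ran from -0.049 to 0.34 against the flox control and -0.082 to 0.18 against the heterozygous deletion in the homozygous deletion. In the heterozygous deletion against the flox control, Cd74 ran from -0.54 to 0.37, H2-Aa from -0.79 to 0.36, H2-DMa from -0.094 to 0.28, H2-Oa from -0.089 to 0.29 and H2-Ob from -0.097 to 0.65. At 1250 ppm against the untreated wild type, H2-DMa ran from -0.11 to 0.090 and H2-Oa from -0.12 to 0.095, and H2-Oa was -0.000692 with no filter on low counts. The cause of these changes was not tested. Libraries of equal replicate number were checked for pairing after group means were removed. In the fetal libraries the correlation was over 0.1 in 2 of 7 same-numbered and 4 of 20 differently numbered pairs. In the adult libraries it was over 0.1 in 7 of 19 same-numbered and 32 of 87 differently numbered pairs. The numbers were thus not taken to pair libraries. For 2500 ppm and the untreated wild type all 3 same-numbered pairs were over 0.1. Replicate 4 at 2500 ppm and untreated replicate 3 had a higher value, 0.46, so the 0.1 limit does not show that these numbers pair libraries. For 10000 and 2500 ppm 3 of 4 same-numbered pairs were over 0.1 (-0.32 to 0.77). At 2500 ppm the block changed no call of a member. With the block, H2-Ob had a slope of 0.42 (adjusted p = 0.0939, edgeR), and Ciita in the homozygous against the heterozygous deletion had an adjusted p of 0.0505. The block moved Cd74 in the homozygous deletion to -4.70 against the flox control and kept its call. No paired analysis was possible for the flox control against the untreated adults because these groups share only 1 replicate number. The precision of Cd74, H2-Aa and Ciita in the homozygous deletion is limited by counts of 0 to 56 per library. Over the settings other than a library left out, the genes called ranged from 1 to 1055 at 10000 ppm against the untreated wild type (169 in the test reported), 4 to 567 at 2500 ppm (65), 438 to 3165 at 1250 ppm (1524), 1052 to 2983 between 10000 and 1250 ppm (2420), 33 to 2227 for the slope (1376) and 0 to 230 in the heterozygous deletion against the flox control (4), so the shares of genes called in these comparisons depend on the test.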
